A study of Mus musculus with 8 samples.

Results

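Translation initiation factors are the proteins that bring a messenger RNA, the initiator methionyl-tRNA and the ribosomal subunits together at a start codon. The genes described here are 56 of the 23284 gene symbols in the count tables. Their symbols begin with Eif and a digit from 1 to 6. The X- and Y-linked genes of the gamma subunit of eIF2 were left out. These genes were chosen by name and not by level, but with earlier results of these data known. They were read in RNA-seq libraries of mouse peripheral retina at postnatal day 12. One group, called Rb-null here, held 4 libraries of retina in which Cre recombinase under the alpha enhancer of Pax6 met floxed Rb1, the retinoblastoma tumour suppressor gene. The other, called TET-MYCN, held 4 libraries whose genotype label reads Rb null with TET-MYCN, and whose alleles are given as the same Cre, a Rosa26 LSL-rtTA and TRE-MYCN. Such a Cre acts in a subset of the cells of the peripheral retina, so each library mixes recombined and other cells. Floxed Rb1 is named in the series text for the first group only, and treatment with an inducer is not described in the sources used here. Whether libraries came from separate animals is not in the labels, and a p-value here therefore weighs only library-to-library spread, part of which may be technical.

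Initiation runs through a fixed order of complexes. eIF2 carries the initiator tRNA as a ternary complex with GTP, eIF2B recharges eIF2 with GTP, and 4 kinases block that exchange by phosphorylating eIF2. eIF3, the largest factor, and eIF1 with eIF1A hold the small subunit open for the scanning messenger. eIF4F joins the cap-binding protein eIF4E, the helicase eIF4A and the scaffold eIF4G, and small 4E-binding proteins keep eIF4E away from eIF4G. eIF5 and eIF5B finish start-codon selection and subunit joining, and eIF6 keeps the large subunit apart until it is needed. MYC family proteins are known regulators of ribosome and translation genes, and the comparison of the 2 groups asks how these transcripts stood when TET-MYCN was added to loss of Rb.

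The libraries held 14872131 to 22873979 reads assigned to genes, and 15106 genes passed the filter on low counts. Levels are CPM, a gene's counts scaled to a common library size, on totals scaled by the trimmed mean of M-values (TMM), and fold changes are from edgeR's quasi-likelihood test, with Benjamini-Hochberg adjustment over all genes tested. Fold changes above 0 on the log2 scale stand for a higher level in TET-MYCN. The ± of a fold change is a standard error and that of a CPM is the SD over 4 libraries. The mouse Mycn row did not separate the groups (231 ± 94.96 CPM in Rb-null and 242 ± 37.6 in TET-MYCN, edgeR adjusted p = 0.934), nor did Rb1 (161 ± 21.9 and 154 ± 23.6, edgeR adjusted p = 0.883). The tables hold no separate row for the transgene, and whether its reads could be counted under Mycn is not known. The deleted part of Rb1 cannot be read from a whole-gene count, so the groups go by their labels throughout. TET-MYCN 3 and, to a smaller extent, Rb-null 4 stood apart from the rest of their groups by having fewer reads in long transcripts, as shown near the end. Marker genes of some other cell types moved with the groups. Summed markers of Müller glia spanned 2146 to 3345 CPM in Rb-null and 1069 to 1879 in TET-MYCN, and those of bipolar cells 537 to 1059 and 404 to 531. Rod markers spanned 3658 to 17301 and 2599 to 6292 CPM, while progenitor markers spanned 54.5 to 143 and 154 to 254. Those of dividing cells spanned 807 to 1909 CPM in Rb-null and 1548 to 1969 in TET-MYCN. The summed ranges overlapped for rods and for dividing cells. Rb-null 3 was the highest library for rod markers and the lowest for those of progenitors and of dividing cells. Of the markers, 0 of 5 for Müller glia, 0 of 5 for bipolar cells and 0 of 9 for rods had a positive fold change, against 6 of 6 for progenitors and 8 of 8 for dividing cells. None of these marker genes passed the adjusted threshold (edgeR), none was at 0 in all libraries, and the part of cell composition in the results below was not tested. Summed lens genes reached 273 CPM in Rb-null 2 and 513 in Rb-null 3. They were at 22.9 in Rb-null 1, 92.2 in Rb-null 4 and 12.3 to 51.8 in TET-MYCN. Whether these reads came from lens tissue was not tested.

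Most initiation factor transcripts stood slightly higher in TET-MYCN, and none of them passed the adjusted threshold. Of the 54 members tested, 44 had a positive fold change (81.5%) and the median was 0.14 on the log2 scale, against 52.2% positive and a median of 0.01 over all genes tested. edgeR called 0 members at an adjusted p under 0.05, where it called 0.0596% of all genes, and the smallest adjusted p of a member was 0.164 (edgeR). At an unadjusted p under 0.05, 12 members were higher (22.2%, against 8.06% of all genes) and 1 was lower (against 7.72%). DESeq2, an alternative test that called 3.51% of all genes, called 2 of the 54 members, a share close to that. These were Eif1ax and Eif5a, both higher. The test of limma-voom called 0 members and 0 genes in all. In bulk tissue, fewer cells of a type and less RNA per cell cannot be told apart, so a small difference in level may be in either.

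Without regard to a test, 9 members had all 4 TET-MYCN libraries above all 4 Rb-null libraries (16.7%, against 4.36% of all genes). These were Eif1ax, Eif2a, Eif2s1, Eif3b, Eif3f, Eif4a1, Eif4e2, Eif4ebp1 and Eif5a. The opposite order was seen for 1 member, Eif2c4 (1.85%, against 3.29% of all genes). The summed level of all members ranged from 7708 to 8549.6 CPM in Rb-null and from 8668 to 9427 in TET-MYCN, so the 2 ranges did not meet.

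**Figure D1:**
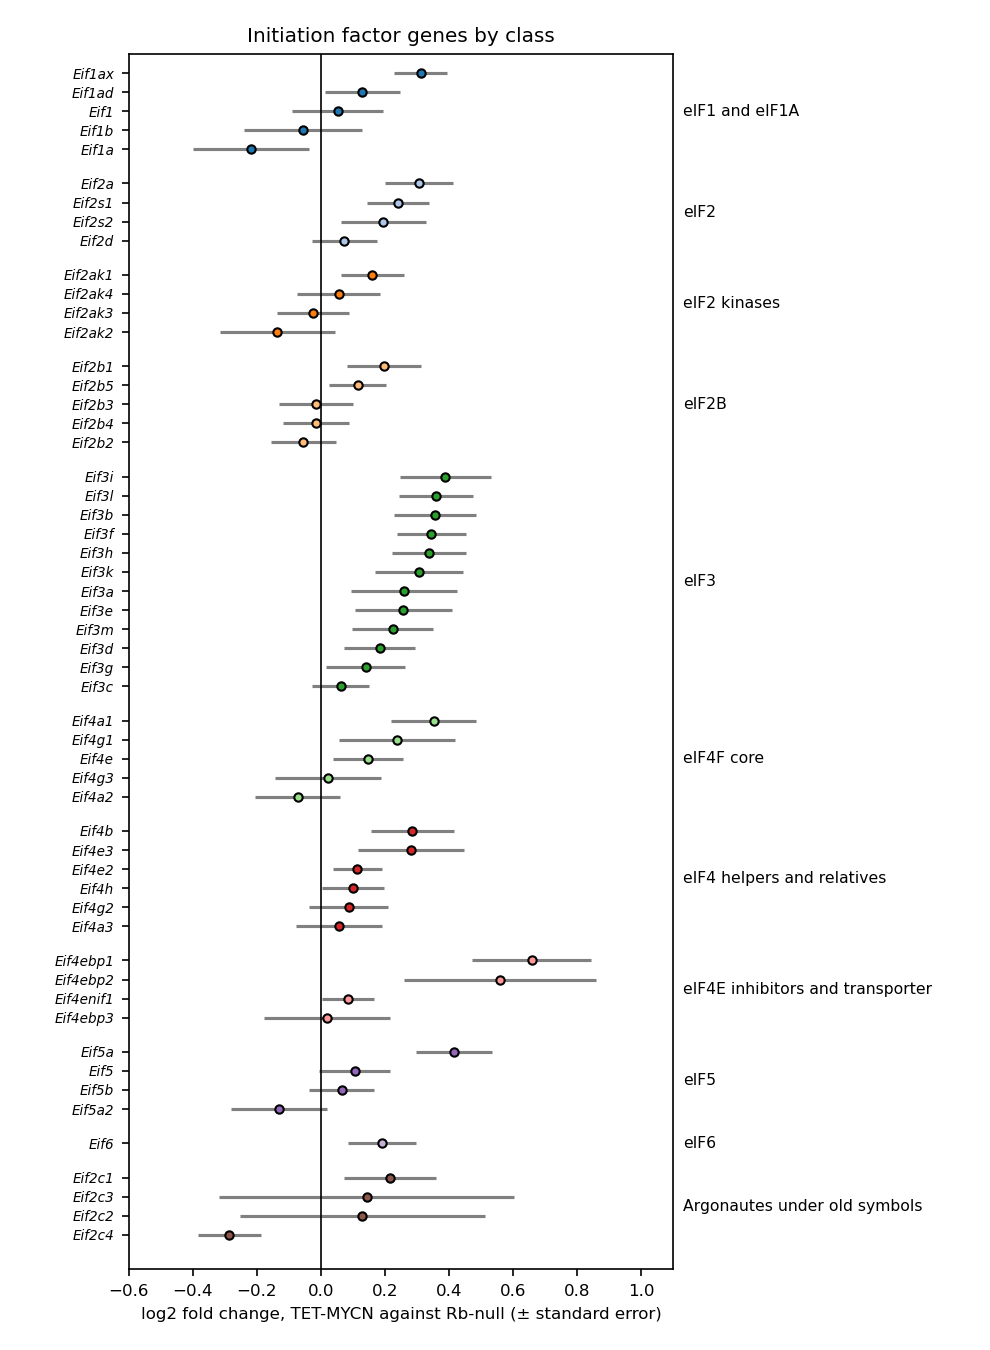
Log2 fold change of TET-MYCN against Rb-null for the 54 tested members (horizontal axis; bars are standard errors), grouped by factor complex with 1 gene per row. All 12 tested eIF3 genes lie to the right of 0, between 0.06 and 0.39, and the eIF2B genes lie on both sides of 0.

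Of the classes, eIF3 had the most genes, and all 12 tested subunit genes had positive fold changes, from 0.06 to 0.39, with a median of 0.28. At an unadjusted p under 0.05, 6 of the 12 were higher (50%, against 8.06% of all genes). Their summed level was 1678, 1654, 1554 and 1672 CPM in Rb-null 1 to 4 and 1950.1, 1717, 1997 and 2165 CPM in TET-MYCN 1 to 4. TET-MYCN 2 lay closest to the Rb-null libraries in this sum. No eIF3 gene passed the adjusted test.

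Eif3f, which encodes a subunit with the MPN fold, was at 163, 152, 167 and 171 CPM in Rb-null 1 to 4 and at 224, 174, 228 and 204 CPM in TET-MYCN 1 to 4. Every TET-MYCN library lay above every Rb-null library, with TET-MYCN 2 only just above Rb-null 4. The log2 fold change was 0.34 ± 0.11 (edgeR adjusted p = 0.202). Eif3b, whose product is a core scaffold of the complex with an RNA-recognition motif, was at 138, 139.6, 121 and 129.9 CPM against 174, 146, 147 and 209 CPM. Again the groups did not overlap, and TET-MYCN 4 was the highest (0.36 ± 0.13, edgeR adjusted p = 0.241). Eif3l, a further subunit, was at 90.1, 94.7, 78.0 and 96.8 CPM against 120.2, 95.1, 119 and 127 CPM. Its TET-MYCN 2 value fell inside the Rb-null range, and the other 3 lay above it (0.36 ± 0.12, edgeR adjusted p = 0.211). Eif3h and Eif3i likewise each had 3 of 4 TET-MYCN libraries above the Rb-null range. The fold changes of Eif3d, Eif3e, Eif3g, Eif3k and Eif3m lay between 0.14 and 0.31, and the groups overlapped for all 5.

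At the other end of the complex, Eif3c, a core subunit, differed by 0.06 ± 0.09. It was at 258, 259.9, 247 and 251 CPM in Rb-null and at 260.3, 246, 275 and 279 CPM in TET-MYCN, and the groups overlapped. Eif3a, the largest subunit and the one that nucleates assembly, was at 289, 311, 232 and 236 CPM in Rb-null and at 326, 314, 239 and 398 CPM in TET-MYCN. TET-MYCN 3 fell within the Rb-null range and the other 3 lay above it (0.26 ± 0.16, edgeR adjusted p = 0.470). Eif3j was listed at 0 counts in all 8 libraries. A count of 0 allows up to 3 counts, which is 0.13 to 0.202 CPM depending on the library, and the mouse annotation of GENCODE M21 places this factor at 2 loci with other symbols, Eif3j1 and Eif3j2, for which the value here says nothing. Reads of Eif3d cannot be told from those of an antisense gene that covers 32.9% of its exon bases, since strand use is not given in the sources used here.

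The summed level of the core eIF4F genes was higher in every TET-MYCN library (1837 to 2061 CPM) than in any Rb-null library (1601 to 1810.3), and Eif4a1 had the largest difference in CPM of the 5 genes. Eif4a1, the housekeeping helicase of the complex, was at 617, 612, 468 and 608 CPM in Rb-null and at 726, 622, 795 and 799 CPM in TET-MYCN. The groups did not overlap, although TET-MYCN 2 was close to Rb-null 1. The fold change was 0.35 ± 0.13 (edgeR adjusted p = 0.256), and 0.26 without Rb-null 3, the lowest library. Its paralog Eif4a2, which is known to be abundant in brain, was at 412, 411, 386 and 441 CPM against 373, 397, 483 and 316 CPM. Here TET-MYCN libraries fell on both sides of the Rb-null range, and the fold change was -0.07 ± 0.13 (edgeR adjusted p = 0.839).

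Eif4e, the cap-binding subunit, was at 105, 99.8, 106 and 110.4 CPM in Rb-null and at 117, 109, 139 and 102 CPM in TET-MYCN. The groups overlapped and the fold change was 0.15 ± 0.11 (edgeR adjusted p = 0.542), which became 0.053 without TET-MYCN 3, the highest library. Eif4g1, the main scaffold, was at 378, 399.9, 348 and 325 CPM against 487, 419, 280.4 and 524 CPM. TET-MYCN 3 was below every Rb-null library and the other 3 were above them (0.24 ± 0.18, edgeR adjusted p = 0.554). The fold change was 0.39 without TET-MYCN 3 and 0.13 without TET-MYCN 4. Eif4g3, a second scaffold, had the same low value in TET-MYCN 3, at 193 CPM against 289.6 to 319.9 CPM in the other TET-MYCN libraries, and differed by 0.02 ± 0.17.

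**Figure D2:**
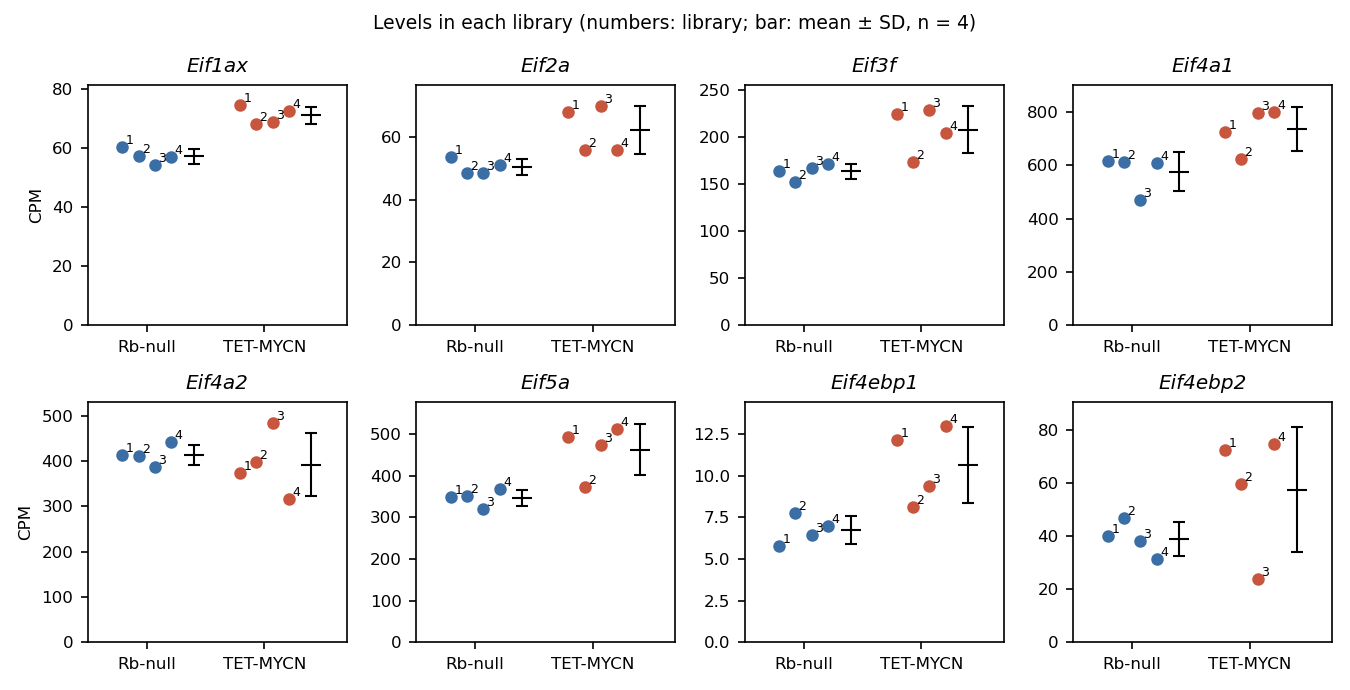
Level in CPM (vertical axis, starting at 0) of 8 initiation factor genes in each library, with Rb-null in blue, TET-MYCN in red, small numbers giving the library, and black bars giving the mean ± SD of 4. Eif1ax, Eif2a, Eif3f, Eif4a1, Eif5a and Eif4ebp1 have no overlap between the groups, Eif4a2 overlaps, and TET-MYCN 3 is the lowest library for Eif4ebp2 at 23.8 CPM.

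MYC and MYCN bind, as dimers with MAX, the E-box CACGTG, and the promoter windows of the members were read for it. The RefSeq promoter table (build GRCm38.p6, 250 bases before to 50 after each gene start) held 44 of the 56 members, and 10 of them had the motif in at least 1 promoter (22.7%). The share was 8.09% of all 27025 genes in that table and 11.4% of the 10656 tested genes found there. Counted by promoter, it was 12 of 58 for the members (20.7%) and 7.15% of all promoters. The motif reads the same on both strands, so 1 search covers both. Not all sites are printed. Eif1b, Eif3a, Eif3k and Eif4e, also of the paralog comparisons or of eIF3, carried the motif and are left out. Of these, Eif1b was not higher in TET-MYCN (log2 fold change -0.06 ± 0.18). The 6 stretches that follow are a selection, from 5 genes of the paralog comparisons and of eIF3. Eif5a2, whose transcript was likewise not higher in TET-MYCN, is included. The stretches run 5′ to 3′ on the strand of the gene, and the capitals mark CACGTG.
Eif3f, chr7:108934327-108934372, plus strand: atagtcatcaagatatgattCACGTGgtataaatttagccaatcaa
Eif4a1, chr11:69672587-69672632, minus strand: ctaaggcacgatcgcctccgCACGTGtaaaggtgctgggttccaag
Eif4g1, chr16:20672653-20672698, plus strand: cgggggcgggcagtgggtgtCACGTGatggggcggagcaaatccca
Eif5a, chr11:69921435-69921480, minus strand: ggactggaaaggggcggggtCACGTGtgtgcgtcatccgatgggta
Eif5a2, chr3:28781115-28781160, plus strand: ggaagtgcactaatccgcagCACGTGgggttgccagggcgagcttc
Eif5a2, chr3:28781140-28781185, plus strand: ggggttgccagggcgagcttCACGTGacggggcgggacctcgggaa

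The motif began 68 bases before the gene start in Eif3f, 189 in Eif4a1, 54 in Eif4g1, 74 at the printed site of Eif5a, and 142 and 117 in Eif5a2. The table has 6 promoters of Eif5a, 3 of them with the motif, and a second site lay 178 bases before another start of that gene. The other members with the motif were Eif1b, Eif3a, Eif3k, Eif4e and Eif4h. The 10 tested members with the motif had fold changes from -0.13 to 0.42 with a median of 0.25, and 8 were positive. The 33 tested members with a listed promoter and no motif had a median of 0.11, and 27 were positive. The 2 sets overlap over most of their range, no test was made of the difference, and a match of letters does not show that a factor binds there.

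Ratios of paralogs within a library do not depend on how libraries are scaled. They can still carry the patterns of transcript length and GC content described near the end. Eif5a (2.377 kb of exon, 54.98% GC) differs on both from Eif5a2 (5.027 kb, 38.79% GC), and Eif4a1 (1.774 kb, 48.08% GC) from Eif4a2 (3.197 kb, 40.18% GC). The part of these patterns in the ratios was not tested. Of 9 pairs compared, 4 had all TET-MYCN ratios above all Rb-null ratios. The share of such pairs among all genes was not computed. The 4 are not separate results, since Eif4a1 is the numerator over both Eif4a2 and Eif4a3. Eif4a1 and Eif5a were also apart as single genes. A pair without overlap always has the smallest p of a two-sided exact permutation test over 70 arrangements. For each of the 4 it was 0.0286. Adjusted over the 9 pairs this became 0.0643, so no ratio passed the threshold. Eif4a1 to Eif4a2 was 0.58, 0.57, 0.28 and 0.46 on the log2 scale in Rb-null and 0.96, 0.65, 0.72 and 1.34 in TET-MYCN. In linear terms the mean ratio was 1.39 in Rb-null and 1.89 in TET-MYCN. The same numerator over Eif4a3, a helicase of the exon junction complex rather than of initiation, differed by 0.31 (2.003 ± 0.06 and 2.31 ± 0.18).

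Eif5a to Eif5a2 had the largest difference of the 9, at 0.55. It was 4.23, 4.32, 4.002 and 4.204 in Rb-null and 4.55, 4.39, 4.75 and 5.29 in TET-MYCN, with TET-MYCN 4 highest and TET-MYCN 2 just above the Rb-null range. Eif4g1 to Eif4g3 was 0.34, 0.52, 0.25 and 0.52 against 0.65, 0.53, 0.54 and 0.71, a difference of 0.20 in which the nearest libraries of the groups almost touched. For both scaffold genes TET-MYCN 3 was low, and their ratio in that library stayed within the range of the other TET-MYCN libraries. The other 5 pairs overlapped, with exact permutation p from 0.0857 to 0.886 before adjustment.

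**Figure D3:**
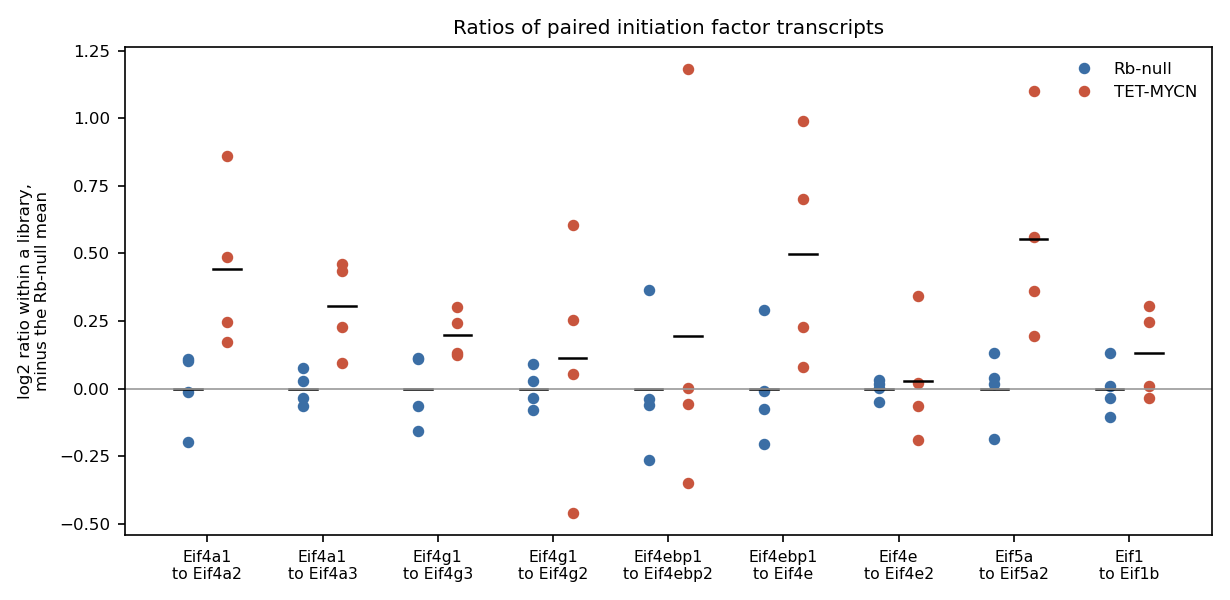
Log2 ratio of 9 pairs of initiation factor transcripts within each library, minus the Rb-null mean of that pair (vertical axis), with Rb-null in blue, TET-MYCN in red and short black lines at group means. The groups do not overlap for Eif4a1 to Eif4a2, Eif4a1 to Eif4a3, Eif4g1 to Eif4g3 and Eif5a to Eif5a2, and the differences of means there are 0.44, 0.31, 0.20 and 0.55.

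The inhibitors and the transporter of eIF4E had a median fold change of 0.32 over 4 genes, all positive. Eif4ebp1, which encodes the classic 4E-binding protein released by mTORC1 phosphorylation, was at 5.81, 7.78, 6.42 and 6.999 CPM in Rb-null and at 12.1, 8.14, 9.39 and 12.99 CPM in TET-MYCN. The groups did not overlap, and the fold change of 0.66 ± 0.19 (edgeR adjusted p = 0.176) was the largest of all members. Relative to Eif4e, the log2 ratio of Eif4ebp1 was -3.97 ± 0.21 in Rb-null and -3.47 ± 0.42 in TET-MYCN, with overlap (exact permutation p = 0.0857, adjusted 0.154).

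Eif4ebp2, the form known for its role in neurons, was at 40.2, 46.8, 38.1 and 31.4 CPM in Rb-null and at 72.5, 59.7, 23.8 and 74.7 CPM in TET-MYCN. TET-MYCN 3 was the lowest of all 8 libraries, while the other 3 lay above the whole Rb-null range. With all libraries the fold change was 0.56 ± 0.30 (edgeR adjusted p = 0.390). Without TET-MYCN 3 it was 0.82 ± 0.14, and the edgeR adjusted p of 0.0331 was then past the threshold. That fit called 1.52% of all genes, against 0.0596% with all libraries, and Eif4ebp2 was the only member it called. When Rb-null 4, the other library low in long transcripts, was also left out, the fold change was 0.72 and the edgeR adjusted p was 0.119, with 3 libraries left in each group. Eif4ebp3 and Eif4enif1, the latter encoding a nuclear import partner of eIF4E, differed by 0.02 ± 0.20 and 0.08 ± 0.08, and 67.3% of the exon bases of Eif4ebp3 are shared with another annotated gene on the same strand.

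The helpers of eIF4F and its relatives had 6 of 6 positive fold changes among those tested, with a median of 0.11. Eif4b, which encodes a cofactor that stimulates the helicase, was at 321, 308, 285 and 304 CPM in Rb-null and at 416, 325, 308 and 435 CPM in TET-MYCN. TET-MYCN 1 and 4 were high, and TET-MYCN 3 fell within the Rb-null range (0.29 ± 0.13, edgeR adjusted p = 0.323). Eif4e2, a cap-binding homolog that acts in repression, was tight in both groups, at 71.4 ± 1.52 CPM and 77.3 ± 1.96 CPM (n = 4 each). The groups were apart, but the fold change was only 0.11 ± 0.08 (edgeR adjusted p = 0.503). Eif4g2, which encodes a scaffold lacking the part that binds eIF4E and had the highest CPM of all members, was at 1574, 1547, 1289 and 1311 CPM against 1608, 1589, 1519.6 and 1357 CPM, with overlap. Eif4h, another helicase cofactor gene, and Eif4a3 differed by 0.10 ± 0.10 and 0.06 ± 0.13. Eif4e3, at 7.38 to 10.6 CPM in Rb-null and 9.44 to 12.7 CPM in TET-MYCN, also overlapped. Eif4e1b, known from oocytes, had 1 to 5 counts per library and was not tested.

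Among the eIF5 genes, Eif5a stood out by size. Its product carries the amino acid hypusine and helps ribosomes through difficult stretches, in elongation more than in initiation. It was at 348, 351, 321 and 368 CPM in Rb-null and at 493, 373, 473 and 511 CPM in TET-MYCN. The groups did not overlap, TET-MYCN 2 being close to the highest Rb-null library, and the fold change was 0.42 ± 0.12 (edgeR adjusted p = 0.182). DESeq2 gave 0.41 ± 0.12 with an adjusted p of 0.0356. Eif5a2, the isoform gene with narrower expression, was at 18.5, 17.5, 19.99 and 19.9 CPM against 21.005, 17.8, 17.5 and 13.04 CPM (-0.13 ± 0.15). These libraries overlapped, and TET-MYCN 4, the highest for Eif5a, was the lowest for Eif5a2.

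Eif5, which encodes the GTPase activator of eIF2, was at 267, 251, 209 and 232 CPM against 273, 266, 268 and 225 CPM, with overlap (0.11 ± 0.11). Eif5b, the subunit-joining GTPase gene, differed by 0.06 ± 0.10. Eif6, whose product guards the large ribosomal subunit, was at 72.6, 74.2, 74.2 and 84.5 CPM in Rb-null and at 80.6, 77.3, 96.3 and 94.5 CPM in TET-MYCN. Rb-null 4 lay inside the TET-MYCN range, and the fold change was 0.19 ± 0.10 (edgeR adjusted p = 0.400).

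The eIF2 genes and the genes that recharge or restrain eIF2 differed from each other in size. The 4 tested genes listed under eIF2, which are 2 subunits and 2 separate initiator tRNA carriers, were all positive with a median of 0.22 (0.14 without TET-MYCN 3), while the 5 eIF2B genes had a median of -0.01 and the 4 kinase genes a median of 0.02. Whether these classes differ was not tested. Eif2s1, the alpha subunit that the kinases phosphorylate, was at 57.2, 55.8, 53.6 and 56.4 CPM in Rb-null and at 68.7, 58.2, 73.9 and 62.8 CPM in TET-MYCN. The Rb-null libraries spanned under 4 CPM and lay below all TET-MYCN libraries (0.24 ± 0.10, edgeR adjusted p = 0.277). Eif2a, which encodes an initiator tRNA carrier separate from eIF2 itself, was at 53.7, 48.4, 48.5 and 50.9 CPM against 67.8, 55.8, 69.9 and 55.6 CPM. Its groups were also apart (0.31 ± 0.11, edgeR adjusted p = 0.231). Eif2s2, the beta subunit, had TET-MYCN libraries from 89.7 to 137 CPM, which took in nearly the whole Rb-null range of 89.5 to 108 CPM (0.19 ± 0.13), and Eif2d, a further initiator tRNA carrier, differed by 0.07 ± 0.10. Summed over the 4 genes, the level was 238 to 265 CPM in Rb-null and 267 to 328 in TET-MYCN, without overlap.

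In eIF2B, the 5-subunit exchange factor, Eif2b1 (alpha) was at 32.9, 33.4, 34.3 and 41.2 CPM in Rb-null and 38.4, 36.5, 45.8 and 41.9 CPM in TET-MYCN (0.20 ± 0.11, edgeR adjusted p = 0.431). Rb-null 4 lay within the TET-MYCN range. Eif2b5, the catalytic epsilon subunit, differed by 0.11 ± 0.09 (56.4 ± 2.59 and 61.1 ± 4.202 CPM), and Eif2b2, Eif2b3 and Eif2b4 differed by -0.05 to -0.01. Summed eIF2B was 199 to 231 CPM in Rb-null and 209 to 239.6 in TET-MYCN. Among the kinases, Eif2ak1, the haem-regulated one, was at 31.1, 35.2, 31.0 and 32.8 CPM against 38.6, 34.6, 33.3 and 38.8 CPM, with overlap (0.16 ± 0.10). Eif2ak2, which responds to double-stranded RNA, spanned 16.4 to 27.7 CPM in Rb-null and 16.98 to 23.2 CPM in TET-MYCN, and Eif2ak3 and Eif2ak4, the sensors of the endoplasmic reticulum and of amino acid shortage, differed by -0.02 and 0.06.

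Eif1ax had the smallest p of all members. It is the X-linked gene of eIF1A, which keeps the scanning complex open, and it stood at 60.2, 57.4, 54.1 and 57.1 CPM in Rb-null and 74.4, 68.3, 68.8 and 72.7 CPM in TET-MYCN. Each group was tight, and the lowest TET-MYCN library lay well above the highest Rb-null library. The fold change was 0.31 ± 0.08 with an edgeR adjusted p of 0.164, and DESeq2 gave 0.31 ± 0.09 with an adjusted p of 0.0210. The sex of the animals was not examined, and its part in the level of Eif1ax was not tested. Eif1a, its autosomal paralog, was at 58.6, 49.9, 77.5 and 69.7 CPM against 62.1, 48.1, 67.96 and 41.6 CPM. The spread within each group exceeded the difference of -0.22 ± 0.18 (edgeR adjusted p = 0.596). Eif1, the guardian of start-codon choice, was at 372, 350.0, 380.2 and 408 CPM in Rb-null and 349, 351, 512 and 355 CPM in TET-MYCN, so its positive fold change of 0.05 ± 0.14 rested on TET-MYCN 3, without which it was -0.10. Eif1b was likewise highest in TET-MYCN 3, at 177 CPM against 95.2 to 117 CPM in the other TET-MYCN libraries, and Eif1ad, a relative of eIF1A by sequence, differed by 0.13 ± 0.12.

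Among the members chosen by name are 4 genes that are not initiation factors. Eif2c1 to Eif2c4 are older symbols of Ago1 to Ago4, the Argonaute proteins that carry small RNAs to their targets. Eif2c4 was the only member with every TET-MYCN library below every Rb-null library. It was at 68.6, 64.0, 69.2 and 63.1 CPM in Rb-null and at 55.8, 61.4, 51.2 and 48.8 CPM in TET-MYCN, and the fold change was -0.29 ± 0.10 (edgeR adjusted p = 0.228). Eif2c2, whose product is the slicing Argonaute, was at 82.0, 86.2, 77.3 and 53.8 CPM against 104, 100.5, 23.2 and 99.6 CPM. TET-MYCN 3 was far below the rest and Rb-null 4 was the lowest of its group. Eif2c3 had the same order of libraries at its low end, at 2.98 CPM in TET-MYCN 3 and 6.86 CPM in Rb-null 4. Without these genes, 41 of 50 tested members were positive.

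To compare genes with each other, CPM were divided by the exon length of the gene in kb. On this per-length scale, averaged over all 8 libraries, Eif4a1 was highest at 369.8 ± 62.8 CPM per kb (SD over 8 libraries), followed by Eif1 at 290.9 ± 41.9, Eif4g2 at 184 ± 16.6 and Eif5a at 170.3 ± 31.6. The order of Eif4g2 and Eif5a lies within their spread, and so does that of Eif3h (142 ± 23.1) and Eif4h (139 ± 9.38). The order also depends on the length used. For Eif5a the exon length, over all its listed transcripts, was 2377 bases, and its longest coding transcript has 1437. With the shorter length its level per kb would be higher. The eIF3 subunit genes, whose products share a complex, spanned 2.77-fold. Per kb, Eif4e was at 20.6 CPM in Rb-null and 22.8 in TET-MYCN, near Eif4ebp3 at 19.2 and 19.5 and above Eif4ebp2 at 6.76 and 9.97 and Eif4ebp1 at 3.38 and 5.34. The lowest tested member was Eif2c3, at 0.804 CPM per kb over the 8 libraries.

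**Figure D4:**
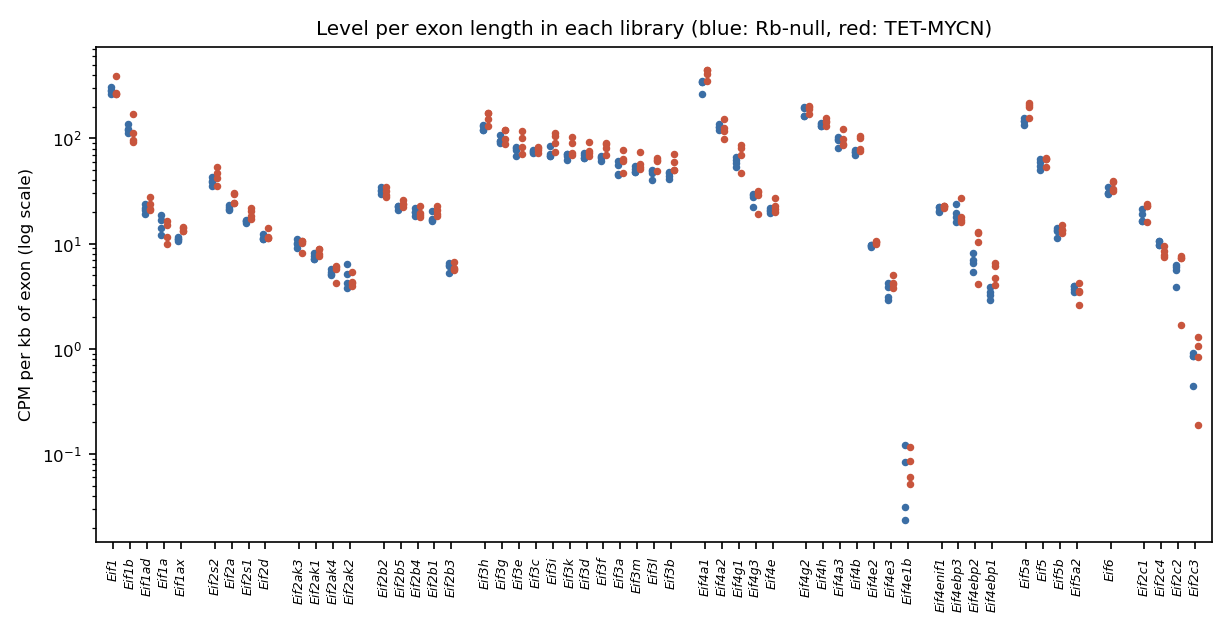
CPM per kb of exon (vertical log axis) of each detected member in each of the 4 Rb-null (blue) and 4 TET-MYCN (red) libraries, grouped by complex and ordered within it. Eif4a1, at a mean of 369.8 CPM per kb over the 8 libraries, is the highest, and Eif4e1b, at 0.0722, is the lowest of those drawn.

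In some libraries the deviation from the group mean followed transcript length. For each member the log2 level in a library was taken as a difference from the mean of its own group, which does not use the contrast of the groups. Over the 54 tested members, Spearman's correlation of this difference with exon length was -0.696 in TET-MYCN 3 and -0.729 in Rb-null 4, and 0.771 in TET-MYCN 2 and 0.624 in TET-MYCN 1. It was 0.375, 0.425 and 0.244 in Rb-null 1 to 3 and 0.101 in TET-MYCN 4. Over the 14929 tested genes with a length the values for the first 4 of these libraries were -0.571, -0.45, 0.461 and 0.381. GC content gave another order, with 0.525 in TET-MYCN 4, -0.471 in TET-MYCN 1 and -0.31 in TET-MYCN 2 over the members, and -0.17 to 0.156 in the remaining libraries. Genes of a library share its RNA and its preparation and are not independent, so these values are a description with no p. Values of one group are also tied to each other by their common mean.

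In TET-MYCN 3, 15 of the 18 longest tested members (4.31 to 15.6 kb) were below their group mean, with a median of -0.22, whereas 2 of the 18 shortest (0.744 to 2.38 kb) were, with a median of 0.18. In Rb-null 4 these counts were 13 of 18 and 0 of 18. The members low in TET-MYCN 3 include Eif4ebp2 (5.78 kb), Eif4g1 (6.04 kb), Eif4g3 (10.1 kb), Eif2c2 (13.8 kb) and Eif2c3 (15.6 kb). TET-MYCN 3 was the lowest or highest of its group for 37 of 54 members, lowest for 17 and highest for 20. Other libraries were often extreme too. TET-MYCN 4 was lowest for 11 and highest for 20, and TET-MYCN 2 for 21 and 5. Rb-null 4 was lowest for 11 and highest for 20, and Rb-null 3 was lowest for 20 and highest for 6. TET-MYCN 3 also had the highest share of all counts in the summary row for non-unique alignments, 12.8%, against 9.05% to 11.7% in the other libraries. The part of RNA quality in this pattern was not tested. Without Rb-null 4 and TET-MYCN 3, 43 of 54 members were positive with a median of 0.14, close to the values from all 8 libraries.

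**Figure D5:**
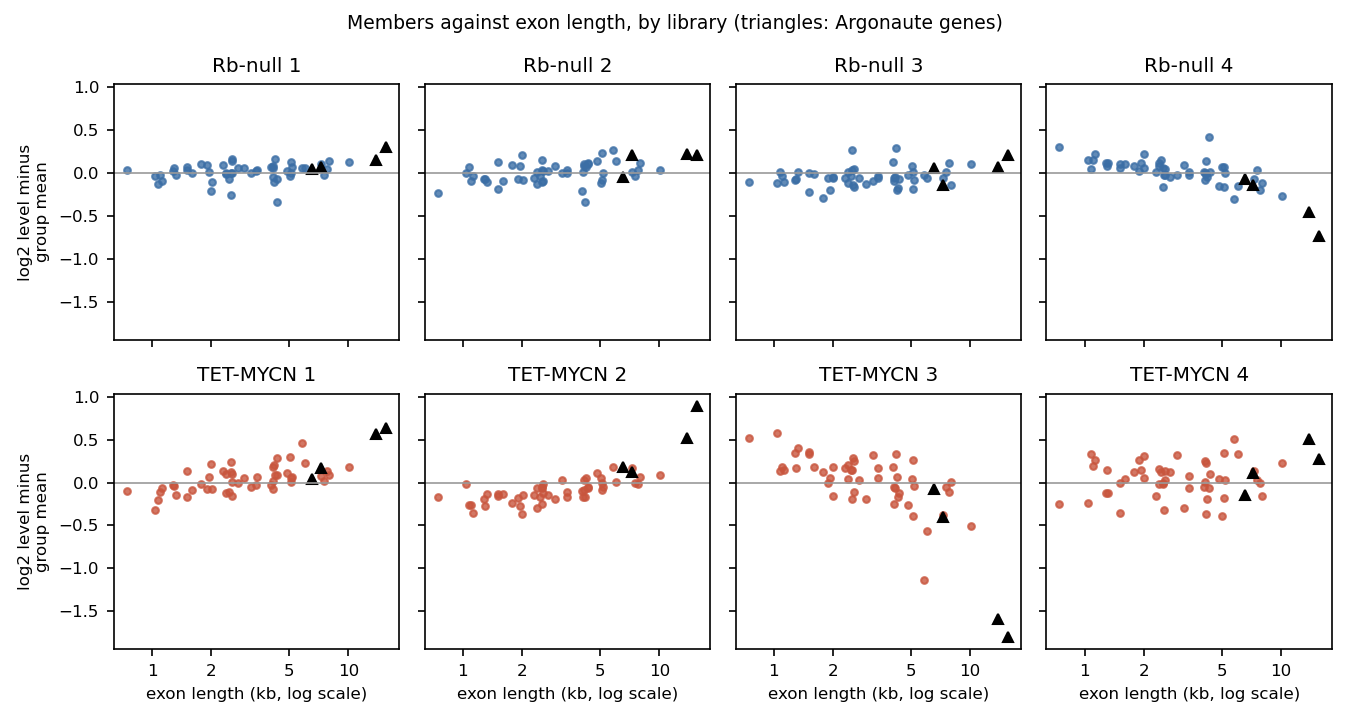
Log2 level of each tested member minus the mean of its group (vertical axis) against its exon length in kb (horizontal log axis), with 1 panel per library and triangles for the Argonaute genes. The points slope down in Rb-null 4 and TET-MYCN 3 (Spearman's correlation -0.729 and -0.696) and up in TET-MYCN 2 (0.771).

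Other genes of translation were read from 4 lists. Of 14 genes of elongation and termination, edgeR called 0, 12 were positive and the median was 0.20. At an unadjusted p under 0.05, 6 were higher (42.9%, against 8.06% of all genes). Eef1b2, which recharges the elongation factor eEF1A, was at 152, 160.1, 135 and 166 CPM in Rb-null and 288, 184, 252 and 327 CPM in TET-MYCN. The groups did not overlap, with TET-MYCN 2 closest to Rb-null (0.78 ± 0.17, edgeR adjusted p = 0.155). Eef1a1, the carrier of aminoacyl-tRNA, was at 2753 ± 181 and 4102 ± 860.2 CPM (0.58 ± 0.16, edgeR adjusted p = 0.181), and Eef1g at 290.0 ± 10.7 and 400.0 ± 76.3 CPM (0.46 ± 0.14, edgeR adjusted p = 0.190).

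Of 15 poly(A)-binding and accessory initiation genes, edgeR called 0, 12 were positive and the median was 0.09. Pabpc1, the poly(A)-binding protein that contacts eIF4G, was at 513, 548, 515 and 461 CPM in Rb-null and 916, 719.6, 638 and 843 CPM in TET-MYCN. All TET-MYCN libraries were above Rb-null (0.61 ± 0.13, edgeR adjusted p = 0.155). Denr, a factor for recycling and reinitiation, was at 42.6 ± 2.97 and 52.2 ± 4.202 CPM (0.29 ± 0.10, edgeR adjusted p = 0.222), and Pabpc4 differed by 0.42 ± 0.14 with the same adjusted p of 0.222 (edgeR).

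The signalling lists were centred on 0. Of 28 genes of cap-binding control, around mTORC1, S6 kinase and the Mnk kinases, 14 were positive with a median of -0.01 and edgeR called 0. These counts include Pdk1, the pyruvate dehydrogenase kinase gene under its mouse symbol, which does not belong to the pathway, and without it 13 of 27 were positive with a median of -0.02. Mknk1, a kinase that phosphorylates eIF4E, was at 49.0 ± 8.59 CPM in Rb-null and 37.4 ± 2.86 in TET-MYCN, with overlap (-0.39 ± 0.14, edgeR adjusted p = 0.233). Akt1s1, which encodes the mTORC1 inhibitor PRAS40, differed by 0.25 ± 0.11 (edgeR adjusted p = 0.305). Pdk1 itself had the smallest p of the list (30.3 ± 3.46 and 48.1 ± 12.5 CPM, 0.67 ± 0.19, edgeR adjusted p = 0.184).

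Of 13 genes of the response to eIF2 phosphorylation, 7 were positive, the median was 0.00 and edgeR called 0. Impact, which encodes an inhibitor of the amino acid-sensing kinase, was at 88.5 ± 9.50 and 71.9 ± 8.44 CPM, with overlap (-0.30 ± 0.12, edgeR adjusted p = 0.263). Atf5, a transcription factor of the stress response, and Nck2, an adaptor that recruits a phosphatase to eIF2, differed by 0.28 ± 0.14 and 0.31 ± 0.14 (edgeR adjusted p = 0.355 and 0.327). At an unadjusted p under 0.05, 0 genes of this list were higher and 1 was lower. DESeq2 called 4 genes of the 4 lists together, Eef1b2, Eef1a1, Pabpc1 and Pdk1, all higher in TET-MYCN, or 3 without Pdk1. The lists held 28, 13, 14 and 15 tested genes, and DESeq2 called 3.51% of all genes.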

How the data were processed

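The authors deposited, for each library, a table of whole-number read counts per gene symbol. The submitters' processing notes name CASAVA 1.8.2, TopHat2 2.0.8b, HTSeq 0.5.4p3 and build mm9, with no order of use. For annotation, strand and options: not given in the sources used here. HTSeq's 5 summary rows (28.3% to 31.7% of all counts) were left out. Counts were filtered with filterByExpr, then TMM-scaled and tested with edgeR 4.0.16 (glmQLFit, robust) in R 4.3.3 on 4 against 4 libraries, threshold 0.05. DESeq2 1.42.0 and limma-voom (limma 3.58.1) were alternatives. Paralog ratios added 0.5 count and used a two-sided exact permutation test. Exon lengths came from GENCODE M21 (another build, lengths only). Figures were drawn with matplotlib 3.10.9.

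The 56 members and the lists were chosen with earlier results of these data known. Libraries were grouped by genotype label. Values were given for the 2 members of smallest p in each class, for the genes of the 9 pairs and for the 3 genes of smallest p in each pathway list. Some others, such as Eif3b, Eif3c, Eif2c2 and Eif2c3, were named after their values were seen. Replicates differed by more than counting noise (chi-square per gene 17.9 or more). Counting limits cover counting error only.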

Additional observations from a re-analysis of the deposited data

Results flagged for a closer look

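In 150 sets of 4 libraries (54 tested members, 12 summed levels and 9 ratios in each group), the highest or lowest library was compared with the rest of its group by its gap over the whole range. Chance passes about 1 set in 20, and 13 passed, of which 6 were in TET-MYCN 3 and 4 in Rb-null 4. Sets are not independent, since the sums hold the same genes. In TET-MYCN 3, Eif1 was at 512 CPM against 349 to 355 in the other TET-MYCN libraries, and the eIF1 and eIF1A sum was at 897 CPM against 631 to 639. Eif4ebp3 was at 20.3 CPM there against 11.9 to 13.2. Eif2c1 was at 115 CPM against 164 to 170.5, Eif2c2 at 23.2 CPM against 99.6 to 104, and the Argonaute sum at 192 CPM against 325 to 347.

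Rb-null 4 was the odd library for Eif2b1, at 41.2 CPM against 32.9 to 34.3, for Eif2c3, at 6.86 CPM against 13.2 to 14.3, and for Eif6, which is also its class sum, at 84.5 CPM against 72.6 to 74.2. Rb-null 3 had 468 CPM of Eif4a1, where the other Rb-null libraries had 608 to 617. TET-MYCN 4 had 225 CPM of Eif5, where the other TET-MYCN libraries had 266 to 273, and 58.4 CPM of Eif2d, where they had 47.1 to 47.6.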

How the results depend on the processing

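The count of called members was 0 by edgeR, 2 with DESeq2, 0 with limma-voom, and 0 to 1 with a library left out (Eif4ebp2, without TET-MYCN 3). For the pathway lists it was 0, 4 with DESeq2, and 0 to 3 with a library left out (1 without TET-MYCN 2, 3 without TET-MYCN 3). Over all genes 9 were called, 530 with DESeq2, 0 with limma-voom, 17 without the filter, 3 with the replicate block and 0 to 230 with a library left out (132 without TET-MYCN 2, 230 without TET-MYCN 3). Leaving out Rb-null 2 and 3, the libraries with the highest sums of lens genes, gave 0.

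Same-numbered libraries did not deviate together (correlations -0.293 to -0.0458), so the numbers are not taken as pairs, and the replicate block called 0 members. Leave-one-out ranges crossed 0 for the medians of eIF1 and eIF1A (-0.10 to 0.10), the eIF2 kinases (-0.036 to 0.11), eIF2B (-0.076 to 0.027) and the Argonautes (-0.065 to 0.38), and for Eif2ak2 (-0.24 to 0.013), Eif1 (-0.10 to 0.098), Eif4a2 (-0.19 to 0.018), Eif4a3 (-0.066 to 0.11), Eif4g3 (-0.065 to 0.16), Eif1b (-0.29 to 0.040), Mycn (-0.17 to 0.31), Rb1 (-0.14 to 0.036), and the ratios Eif4g1 to Eif4g2 (-0.050 to 0.30), Eif4ebp1 to Eif4ebp2 (-0.13 to 0.38) and Eif4e to Eif4e2 (-0.079 to 0.098). Without Rb-null 4 and TET-MYCN 3, a choice made after seeing the data, the eIF4F median was 0.076, and values turned sign for Eif2ak2 (0.070), Eif1 (-0.06995), Eif4a3 (-0.053), Eif4ebp1 to Eif4ebp2 (-0.012) and Eif4e to Eif4e2 (-0.069). The cause was not tested. The member median stayed between 0.13 and 0.17. The Argonaute median was -0.08 with limma-voom and -0.02 with the replicate block.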
